A study of Mus musculus with 6 samples.

Results

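AP-1 and Egr immediate-early genes are a group of transcription factor genes that cells switch on within minutes of a stimulus. The 10 genes described here were chosen by symbol: Fos, Fosb and Fosl2, Jun, Junb and Jund, Atf3, Egr1 and Egr2, and Ier2. They are 10 of the 18193 genes named on the array and were measured by 14 of its 45037 probe sets that are not controls. All 10 genes and 12 of the 14 probe sets passed the filter on dim signals, which asked that 3 or more of the 6 arrays reach a signal of 100. Fosb passed through its wild-type arrays alone.

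Tumor samples came from 3 independent granulosa cell tumors. The mice carried mutant Smad1, Smad5 and Smad8, the transcription factors that carry signals of bone morphogenetic protein receptors. Per the labels these tumors had no treatment. They were kept overnight in RNAlater and then frozen. The labels do not state how the Smad genes were mutated, or from which strain, at what age and in which sex the tumors grew. The 3 control samples were granulosa cells, the somatic cells that surround and nourish the oocyte, isolated from wild-type C57BL/6J;129S5/SvEvBrd females of 21 days. These females had been injected with PMSG, a gonadotropin that makes follicles grow, 44 to 46 hours earlier, and each sample pooled 2 to 3 of them. The groups thus differ in tissue handling, hormone treatment, cell composition and array software as well as in genotype, and the effects of these cannot be told apart. The p-values below set the groups' difference against the spread between these samples only.

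AP-1 is a pair of basic leucine zipper proteins, usually one of the Fos family and one of the Jun family, while Egr proteins bind GC-rich DNA through zinc fingers. Growth factors and gonadotropins are known to reach these genes through MAP kinases acting on SRF and its Elk partners and through cAMP acting on CREB, and most of the resulting mRNAs are short-lived. In rat granulosa cells gonadotropins are known to induce Fos, Jun and Egr family members, and Fosl2 and Jund are known to be expressed in cells that luteinise.

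Promoter windows of 6 members are shown because they differ in the control elements near their starts. RefSeq windows on GRCm38.p6, running from 250 bases before to 50 bases after each annotated start, were searched for 8 of the 10 genes. Egr1 was left out of the search, and no window was found for Ier2. Positions are counted from the start, where 1 is its first base. Capitals mark matches to GCGNGGGCG (the Egr site), the CArG box bound by SRF, TATAAA (the TATA box), and TGACG, the 5 letters that open the cAMP response element TGACGTCA, each searched on both strands.
Fos chr12:85473640-85473939, plus strand: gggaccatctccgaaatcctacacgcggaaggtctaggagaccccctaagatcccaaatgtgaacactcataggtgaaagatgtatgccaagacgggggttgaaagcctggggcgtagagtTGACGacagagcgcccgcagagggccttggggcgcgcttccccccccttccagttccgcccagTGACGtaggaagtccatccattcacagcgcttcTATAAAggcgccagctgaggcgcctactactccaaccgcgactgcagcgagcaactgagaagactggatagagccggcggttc
Fosb chr7:19309996-19310295, minus strand: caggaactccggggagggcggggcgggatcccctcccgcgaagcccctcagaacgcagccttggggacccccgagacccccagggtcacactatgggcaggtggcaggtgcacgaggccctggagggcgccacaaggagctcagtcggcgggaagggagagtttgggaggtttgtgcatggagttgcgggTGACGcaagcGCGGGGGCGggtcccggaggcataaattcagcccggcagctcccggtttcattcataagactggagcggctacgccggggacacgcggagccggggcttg
Fosl2 chr5:32136222-32136521, plus strand: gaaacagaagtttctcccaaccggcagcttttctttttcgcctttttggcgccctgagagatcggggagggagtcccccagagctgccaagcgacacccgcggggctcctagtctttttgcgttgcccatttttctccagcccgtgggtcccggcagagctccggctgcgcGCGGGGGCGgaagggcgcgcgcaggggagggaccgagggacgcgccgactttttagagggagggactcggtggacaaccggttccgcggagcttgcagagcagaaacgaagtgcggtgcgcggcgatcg
Jun chr4:95052173-95052472, minus strand: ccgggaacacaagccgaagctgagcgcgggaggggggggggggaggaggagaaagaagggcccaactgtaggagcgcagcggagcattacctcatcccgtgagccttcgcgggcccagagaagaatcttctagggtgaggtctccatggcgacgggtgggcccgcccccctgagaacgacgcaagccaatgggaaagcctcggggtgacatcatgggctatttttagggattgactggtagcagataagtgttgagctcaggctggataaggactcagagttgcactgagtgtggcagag
Junb chr8:84978699-84978998, minus strand: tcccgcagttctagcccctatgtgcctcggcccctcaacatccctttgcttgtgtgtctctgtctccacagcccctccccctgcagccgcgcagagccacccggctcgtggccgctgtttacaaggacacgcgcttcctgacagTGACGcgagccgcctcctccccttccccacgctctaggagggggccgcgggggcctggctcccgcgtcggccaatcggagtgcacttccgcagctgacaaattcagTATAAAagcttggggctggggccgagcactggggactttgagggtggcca
Egr2 chr10:67537619-67537918, plus strand: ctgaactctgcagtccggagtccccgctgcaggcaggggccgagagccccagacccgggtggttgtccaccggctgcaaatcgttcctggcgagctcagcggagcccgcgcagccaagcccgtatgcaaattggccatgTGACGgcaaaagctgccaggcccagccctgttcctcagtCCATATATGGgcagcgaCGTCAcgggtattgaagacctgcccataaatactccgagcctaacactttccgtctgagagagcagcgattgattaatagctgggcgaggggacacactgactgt
These 6 windows were chosen to set the 3 Fos genes beside Jun, Junb and Egr2. TGACG lay in the windows of 5 of the 8 genes, namely Fos, Fosb, Junb, Atf3 and Egr2, and in 20.8% of all 32851 windows. Counted by window, TGACG lay in 7 of the 12 member windows, among them overlapping Egr2 windows that share the same sites. A gene counts here if any of its windows matched, so gene counts and shares of all windows are not like for like. In Fos TGACG began at positions -129 and -66, ahead of TATAAA at -33. The Egr site GCGNGGGCG lay at -50 in Fosb and at -79 in Fosl2, and in 5.55% of all windows. A CArG box was found in Egr2 alone among the 8 genes searched, at -72 in the window shown, and in 1.63% of all windows. Sites outside these windows were not searched for any gene. TATAAA was found in Fos and Junb, and in 13.6% of all windows. In Junb it began at position 1, on the annotated start itself, and not ahead of it as in Fos. Neither TGANTCA, the AP-1 site, nor the full TGACGTCA was found in any of the 12 member windows, against 7.81% and 1.79% of all windows. The Jun and Jund windows held no match to these motifs. A match describes the sequence and does not show that a factor was bound. The search for TGACG was added after the windows had been seen.

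The deposited signals had a trimmed mean of 500 on each array, so likeness in overall brightness was fixed by their scaling. Medians of the deposited signals were 100.6 to 114.2 in tumors and 105.1 to 127.8 in wild-type samples. The mutated genes were not low in tumors: Smad1 had 2076, 2861 and 2354 in tumors, against 829.6, 855.6 and 925.7 in wild-type samples, and Smad5 had 2435.5, 2815.5 and 3108 in tumors, against 1246, 1078 and 1273 in wild-type samples, while Smad9 (Smad8) was under 100 on every array. Whether these probe sets lie in the mutated parts is not known here, so they do not check the labels. Markers fixed for other cell types were higher in tumors, with 9 of 9 macrophage, 6 of 6 smooth muscle and pericyte, 6 of 6 fibroblast and 4 of 7 endothelial genes passing the test (limma, Benjamini-Hochberg adjusted p under 0.05). Summed macrophage marker signal was 12451 to 15451 in tumors and 1965 to 2329 in wild-type samples, and summed fibroblast marker signal was 39264 to 64748 in tumors and 13158 to 16031 in wild-type samples. Smooth muscle markers summed to 15168 to 27888 in tumors and 3988 to 5258 in wild-type samples, and endothelial markers to 2799.9 to 5774 in tumors and 857 to 1215 in wild-type samples. Granulosa markers summed to 41354 to 51597 in tumors and 81139 to 99213 in wild-type samples, with 1 of 6 tested genes higher, 2 lower and 3 not passing. Inha and Inhba weighed heavily in this sum. Inha, not called, averaged 32382 in tumors and 42810 in wild-type samples, and Inhba, called lower, averaged 687 in tumors and 26368 in wild-type samples. Both tested oocyte markers were lower, at a sum of 162 to 281 in tumors and 493 to 833 in wild-type samples, and the 1 theca marker tested, Cyp17a1, was lower, at 29.5 to 289.9 in tumors and 2179 to 5950.2 in wild-type samples. Among the called markers, Ptprc, Vwf, Des and Zp3 reached 100 in 1 group only. No T cell marker passed the filter, and Cd2 and Cd3e were under 100 on every array. The part of these cell type differences in the results below was not tested, and in such bulk samples fewer cells of a type and less RNA per cell cannot be told apart.

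One wild-type sample stood apart in these genes. In wild-type replicate 2, 7 of the 10 members were at least 2-fold above both other wild-type samples on the log2(signal + 32) scale, namely Fos, Fosb, Jun, Junb, Egr1, Ier2 and Atf3. Over all 11611 tested genes the share was 0.508%, or 59 genes. Both other wild-type signals of Atf3 were under 100, so for Atf3 only an excess of at least 1.94-fold is shown. With signals under 100 set to 100 in the other wild-type samples, the count was 6 of the 10 members, and 0.388% of all genes. No other wild-type array had a member so far above its group. Among the tumors replicate 1 and replicate 2 had 1 each, Jund and Fosb in that order. All tumor signals of Fosb were under 100, so its excess on tumor replicate 2 is not read as a difference. Each member is therefore given below with all 6 arrays and without wild-type replicate 2.

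Of the 10 members, Fos, Fosl2 and Ier2 fell in tumors and none rose, at an adjusted p under 0.05 (limma, Benjamini-Hochberg over 11611 genes). Over all genes 12.6% were lower and 14.5% higher. At an unadjusted p under 0.05, 5 members were lower, Fosb and Jun being added, and 0 higher, against 19.1% lower and 21.1% higher over all genes. The median log2 fold change of the members was -1.07, tumor over wild type, against -0.00 over all genes, and 8 of the 10 lay below 0. In 5 members, Fos, Fosb, Fosl2, Jun and Ier2, every tumor lay below every wild-type sample, which held for 22.6% of all genes. Fosb passed the filter through its wild-type arrays alone, which favours a lower tumor signal. Fosb is therefore not read as support in either count of 5, which leaves Fos, Fosl2, Jun and Ier2 in both. Without wild-type replicate 2 the fit put 4 members lower, Fosb being added, and 1 higher, Atf3, against 8.66% lower and 11.2% higher over all genes, and the members' median was -0.49. Each of these added genes then had signals of 100 or more in 1 group only, so its p is not read as support, and the 3 others, Fos, Fosl2 and Ier2, are those called with all arrays.

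The scale of the arrays bears on every direction given here. When the arrays were scaled to the bacterial hybridisation controls in place of the trimmed mean, the median of all genes moved to -0.98, and 416 genes (3.58%) were called higher and 7544 (65%) lower, against 1686 and 1468. The members' median was then -2.07, which is -1.08 relative to all genes, and 8 of the 10 were called lower. On that scale Atf3 stood at -0.19 and Jund at -0.82, so the sign of these genes holds only relative to the other genes of the array. All changes below are relative to the bulk of the genes on the array.

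**Figure D1:**
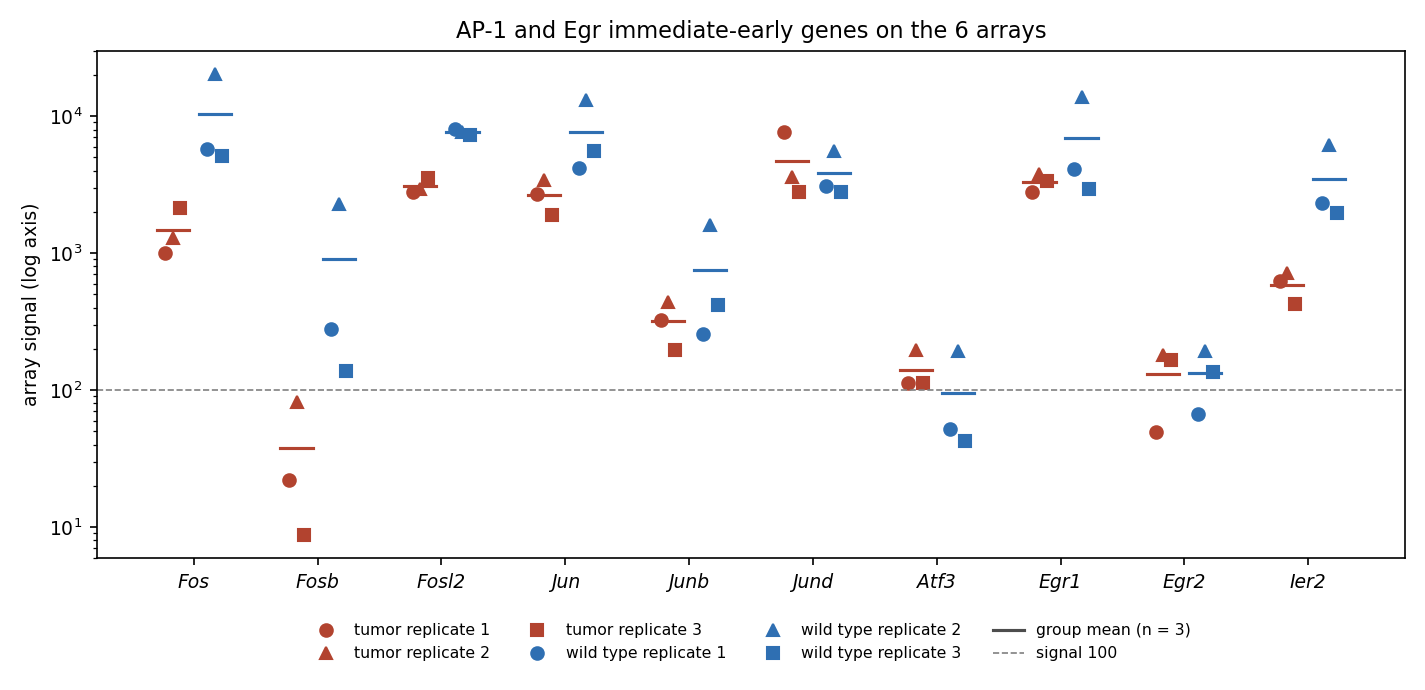
Array signal of each member (y axis, log scale, no unit) on the 3 tumor arrays (red) and the 3 wild-type arrays (blue), with horizontal bars for group means and a dashed line at the signal of 100. Fos, Fosb, Fosl2, Jun and Ier2 separate the groups, and the blue triangle of wild-type replicate 2 lies highest of all 6 arrays for Fos, Fosb, Jun, Junb, Egr1, Egr2 and Ier2.

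Fos, on chromosome 12, encodes the founding Fos family protein, which binds DNA only in a dimer. Its signal was 1003.8, 1289.8 and 2136.1 in the 3 tumors, against 5795, 20398 and 5115 in the 3 wild-type samples. Every tumor lay below every wild-type sample, and wild-type replicate 2 was 3.74 times the mean of the other two. Means were 1477 ± 589 in tumors and 10436 ± 8634 in wild-type samples (SD, n = 3 each). Tumor over wild type, this was a log2 fold change of -2.56 (SE 0.54, 95% interval -3.84 to -1.28, limma adjusted p = 0.0148). On the 5 arrays without wild-type replicate 2 it was -1.93 (SE 0.33, limma adjusted p = 0.0160), so the call did not rest on that array although the size did.

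Fosb, on chromosome 7, encodes a close relative of Fos. Signals were 22.1, 82.1 and 8.70 in tumors, against 279, 2282 and 138 in wild-type samples. All tumors were under 100, where the array does not measure well, so only a bound is given: Fosb was at least 4.45-fold lower in tumors (limma adjusted p = 0.0508, just over the threshold). Wild-type replicate 2 was 10.9 times the mean of the other two wild-type samples, more than for any other member. Without it Fosb was at least 1.96-fold lower (limma adjusted p = 0.0478). Because Fosb passed the filter through the group where it is high, neither p is read as support. The range of the adjusted p over the 15 alternative settings that tested Fosb was 9.24e-10 to 0.117, and 7 of them lay under 0.05. Its plotted log2 fold change depends on the pseudocount.

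Fosl2, on chromosome 5, encodes Fra-2, a Fos family protein that lacks the strong activation domain of Fos. It had 2803, 2937 and 3528 in tumors, against 8081, 7649 and 7337 in wild-type samples. The groups were far apart and each was tight, at 3089 ± 386 in tumors and 7689 ± 373 in wild-type samples (SD, n = 3 each). On the log2 scale the difference was -1.31 (SE 0.15, 95% interval -1.66 to -0.96, limma adjusted p = 0.00168), the lowest p of the 10 members. Fosl2 took no part in the excess on wild-type replicate 2, which was 0.992 times the mean of the other two, and without that array the log2 fold change was -1.32 (limma adjusted p = 0.00864). A dimmer Fosl2 probe set had 266.9, 284.2 and 265.6 in tumors, against 488.4, 452.6 and 376.1 in wild-type samples. It also separated the groups, with a smaller change of -0.62 on the log2 scale (SE 0.16, adjusted p = 0.0312 in limma over 24168 probe sets).

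Ier2, on chromosome 8, encodes a small nuclear protein of the immediate-early response that is not a bZIP factor. Its signal was 629.7, 712 and 429 in tumors, against 2314, 6204.5 and 1977.5 in wild-type samples. The lowest wild-type sample lay well above the highest tumor, and wild-type replicate 2 was again highest, 2.89 times the mean of the other two. On the log2 scale Ier2 stood at -2.34 (SE 0.43, 95% interval -3.35 to -1.32, limma adjusted p = 0.00903). With wild-type replicate 2 left out it was -1.83 (SE 0.25, limma adjusted p = 0.00898). Fos, Fosl2 and Ier2 passed under all 16 alternative settings, with a highest adjusted p of 0.0433, 0.0126 and 0.0248 in that order. Of the 12 tested member probe sets 4 were lower, the share over all 24168 being 11.9%. These were the probe sets of Fos and Ier2 and both of Fosl2, so Fosl2 counts more than once and no further gene was added.

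**Figure D2:**
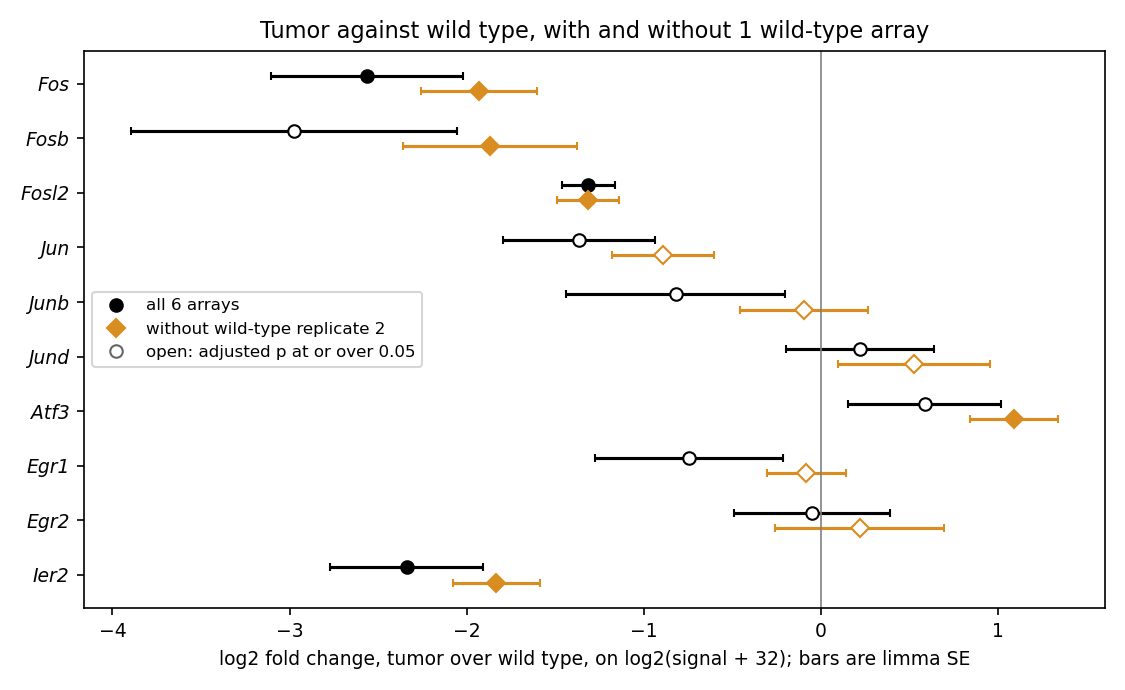
Log2 fold change of each member, tumor over wild type, on the log2(signal + 32) scale (x axis), with all 6 arrays (black circles) and without wild-type replicate 2 (orange diamonds). Bars are limma standard errors and open symbols have an adjusted p at or over 0.05. Fosl2 stays at -1.31 and -1.32, while Egr1 and Junb move to -0.08 and -0.09.

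No Jun family gene passed the test with all arrays. Jun, on chromosome 4, encodes the Jun protein that pairs with Fos. It had 2683, 3442 and 1908 in tumors, against 4219, 13096 and 5577.5 in wild-type samples. The groups did not overlap, but wild-type replicate 2 was 2.67 times the mean of the other two. The log2 fold change was -1.37 (SE 0.43, 95% interval -2.37 to -0.36), which did not pass (limma adjusted p = 0.0525). Without wild-type replicate 2 it was -0.89 (limma adjusted p = 0.0795), and Jun passed in 6 of the 16 alternative settings. A second Jun probe set had 933, 1368 and 750.5 in tumors, against 1238, 2779.9 and 1077.5 in wild-type samples, and overlapped (log2 fold change -0.64, limma adjusted p = 0.268 over probe sets).

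Junb, on chromosome 8, encodes a Jun protein that often restrains Jun. Signals were 326, 442.5 and 196 in tumors, against 258, 1597.5 and 418 in wild-type samples. Only wild-type replicate 2 stood outside the tumors' range, at 4.73 times the mean of the other two. The log2 fold change of -0.82 did not pass (95% interval -2.27 to 0.63, limma adjusted p = 0.359), and without that array it was -0.09 (95% interval -0.98 to 0.79, limma adjusted p = 0.870).

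Jund, on chromosome 8, encodes the Jun protein that most resting cells express. It had 7648, 3599 and 2782.5 in tumors, against 3116, 5565.5 and 2775 in wild-type samples. Here tumor replicate 1 was the highest of all 6 arrays and the groups overlapped. The log2 fold change was 0.22 (95% interval -0.76 to 1.2, limma adjusted p = 0.723), and without tumor replicate 1 it was -0.20, so 1 tumor set its direction. Leaving out wild-type replicate 2 gave 0.53 (limma adjusted p = 0.414). A second Jund probe set did not pass the filter, with 111.3, 11.4 and 2.67 in tumors, against 51.4, 71.2 and 46.4 in wild-type samples.

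Atf3, on chromosome 1, encodes a stress-induced bZIP factor that can pair with Jun proteins. Its signals were low, at 112.3, 195.8 and 113.2 in tumors, against 51.7, 194.0 and 42.6 in wild-type samples. Wild-type replicate 2 matched the brightest tumor while the other wild-type samples were under 100. With all arrays the log2 fold change was 0.59 (95% interval -0.43 to 1.60, limma adjusted p = 0.349). When wild-type replicate 2 was left out, both remaining wild-type signals lay under 100, and Atf3 was at least 1.36-fold higher in tumors (limma adjusted p = 0.0341). That p rests on a group not measured above 100, and is not read as a call; the plotted value of 1.09 depends on the pseudocount.

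Both Egr genes failed to separate the groups. Egr1, on chromosome 18, encodes a zinc finger factor that gonadotropins are known to induce in ovarian cells. It had 2793.5, 3806 and 3341 in tumors, against 4108, 13916 and 2946 in wild-type samples. The tumors lay within the range of the wild-type samples but for the lowest, and wild-type replicate 2 was 3.95 times the mean of the other two. The log2 fold change was -0.74 (95% interval -1.99 to 0.50, limma adjusted p = 0.333). Without that array it was -0.08 (SE 0.22, 95% interval -0.63 to 0.47, limma adjusted p = 0.820), while Fos and Ier2 kept their calls on the same 5 arrays. Whether Fos and Egr1 differ in their response was not tested.

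Egr2, on chromosome 10, encodes a second zinc finger factor, best known for its role in myelin formation. Its signals were near the limit, at 49.6, 179.4 and 166.3 in tumors, against 67.2, 194.7 and 136.7 in wild-type samples. The groups had nearly the same mean, 131.8 ± 71.5 in tumors and 132.9 ± 63.8 in wild-type samples (SD, n = 3 each). Their log2 fold change was -0.05 (95% interval -1.08 to 0.98, limma adjusted p = 0.945). Wild-type replicate 2 was the highest of all arrays for Egr2. Without that array the log2 fold change was 0.22 (95% interval -0.96 to 1.39, limma adjusted p = 0.768), so the sign turned. A second Egr2 probe set did not pass the filter, with 77.2, 157.2 and 146.3 in tumors, against 6.7, 80.3 and 45.8 in wild-type samples.

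The spread within the groups was itself large for these genes. The median SD of the log2 values was 0.478 between tumors and 0.883 between wild-type samples over the members, against 0.239 between tumors and 0.186 between wild-type samples over all genes. In 7 of the 10 members the wild-type SD exceeded the tumor SD, which held for 38.5% of all genes. Wild-type replicate 2 was the highest of all 6 arrays for 7 of the 10 members and for 19.9% of all genes. Among the members, Fosl2, Atf3 and Jund were highest elsewhere.

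Beyond the members, 31 other immediate-early genes were listed, and 25 were tested. Of these 25, 7 were at least 2-fold above both other wild-type samples on wild-type replicate 2. Nr4a1, an orphan nuclear receptor gene, was 3.91 times the mean of the other two, Klf4 was 3.44 times, and Zfp36, whose product destabilises mRNAs, was 3.33 times. Rhob at 2.92, Ccn1 at 2.81, Gadd45b at 2.44 and Klf2 at 2.43 times completed the 7. The rest of the list did not take part to that extent, and Sgk1 lay below both other wild-type samples there. The tumor arrays had 3, 1 and 1 such genes of the list above their own group mates, and wild-type replicates 1 and 3 had 0 each.

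**Figure D3:**
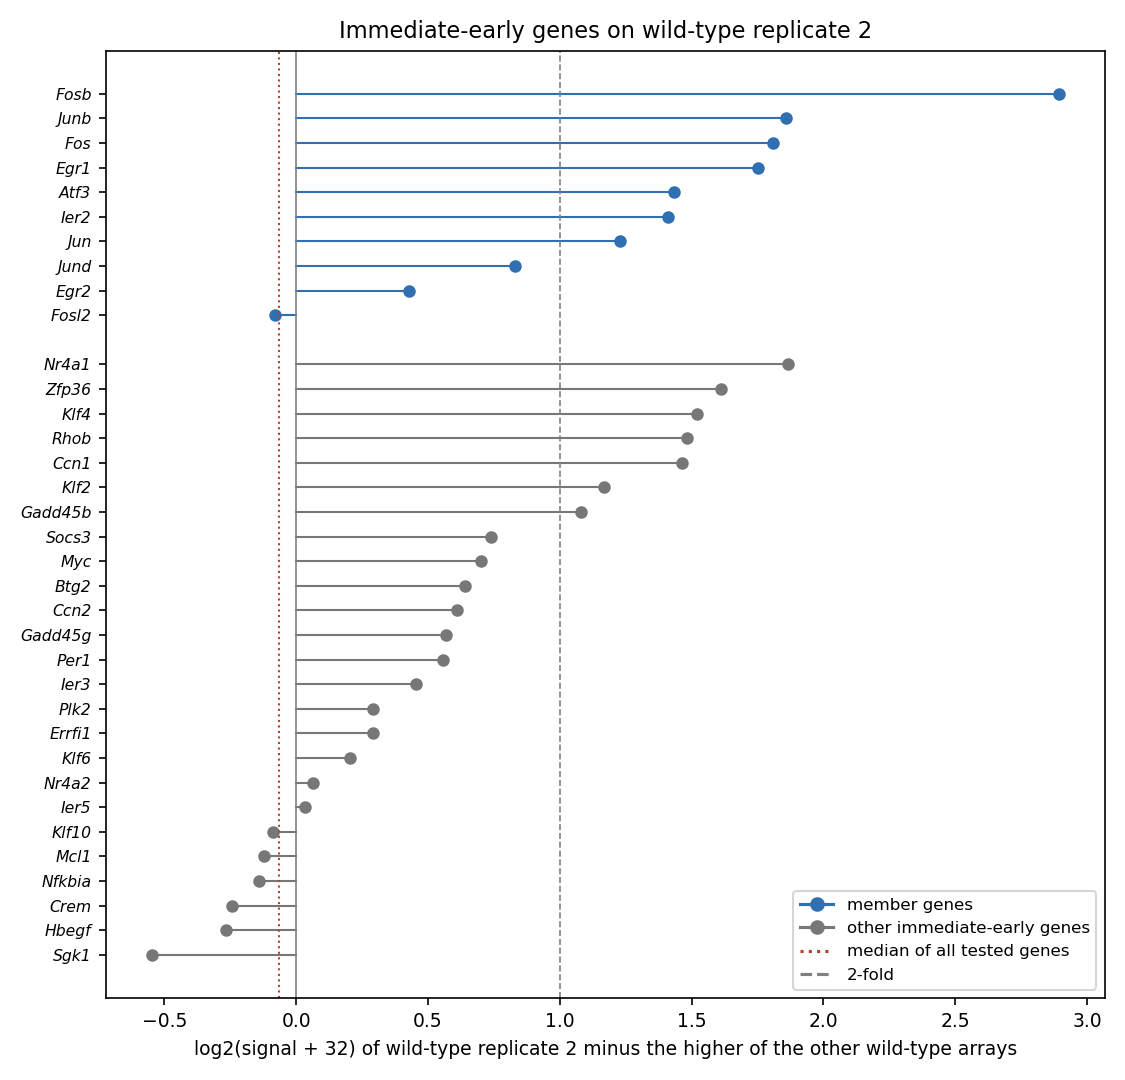
Wild-type replicate 2 minus the higher of the other wild-type arrays on the log2(signal + 32) scale (x axis) for the 10 members (blue) and the 25 other tested immediate-early genes (grey). The members' median is 1.42 and the dotted red line marks -0.06, the median of all tested genes; 7 members, of which Atf3 has both other wild-type signals under 100, and 7 other genes lie beyond the dashed 2-fold line.

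Other measures of wild-type replicate 2 differed in part from those of the other two. Its macrophage marker sum was 2276, between 1965 and 2329 in the other wild-type samples. The endothelial sum of 1024, the smooth muscle sum of 5016 and the fibroblast sum of 14570 likewise lay between those of the other two. Its granulosa sum of 81139 and its theca signal of 2179 were the lowest of the wild-type samples. The theca signal was 5950.2 and 4717 in the other two. Inhba weighed heavily in the granulosa sum, at 20087 there against 28212 and 30806. Among the other granulosa markers, Foxl2 and Esr2 were also lowest there, and Inha lay between the other two. Fshr was highest there, at 6134.6 against 5738.7 and 5185, and so was Amh, at 1658 against 455.9 and 253. The low sum was thus not shared by all granulosa markers. Its Actb 3' to 5' log2 ratio, a measure of RNA integrity, was 0.669, above 0.328 and 0.342 in the other two, and the mean was 0.808 ± 0.210 in tumors and 0.447 ± 0.193 in wild-type samples (SD, n = 3 each). The same ratio of Gapdh was -0.324, against -0.395 and -0.455 in the other two. Its Pearson correlations with the other wild-type arrays were 0.971 and 0.964 across all tested genes, which are not independent, and that pair correlated at 0.979. The part of RNA integrity and of cell composition in the excess was not tested.

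Of the other immediate-early genes, 4 of 25 were called higher in tumors and 0 lower (limma, adjusted p under 0.05), with a median log2 fold change of 0.26. The count higher is near the 14.5% of all genes, and 12.6% of all genes were lower. At an unadjusted p under 0.05 these numbers were 7 and 1, against 21.1% and 19.1% of all genes. Scaled to the hybridisation controls the median was -0.79, with 1 called higher and 13 lower, and without wild-type replicate 1 the calls were 2. Nr4a2, an orphan nuclear receptor gene related to Nr4a1, had 612, 209 and 229 in tumors, against 39.3, 53.1 and 49.4 in wild-type samples. All its wild-type arrays were under 100, and it was at least 3.08-fold higher in tumors (limma adjusted p = 0.00737). Nr4a2 passed the filter through the tumors alone, so that p is not read as support. Klf2, a zinc finger gene of endothelial and immune cells, averaged 1476 ± 360 in tumors and 464 ± 260 in wild-type samples (SD, n = 3 each; log2 fold change 1.70, limma adjusted p = 0.0144). Klf2 thus rose although wild-type replicate 2 was high, and without wild-type replicate 1 it did not pass (adjusted p = 0.0577). Ier5, a growth response gene named alongside Ier2, averaged 873 ± 161 in tumors and 255 ± 28.3 in wild-type samples (SD, n = 3 each; log2 fold change 1.65, SE 0.18, limma adjusted p = 0.00149). Crem, a cAMP-response factor gene, was the fourth. Ier2 and Ier5 therefore moved in opposite directions, at -2.34 and 1.65 on the log2 scale.

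Other bZIP genes related to the AP-1 members were mostly higher in tumors. Of 12 listed, 7 were tested: 5 were called higher in tumors, 0 lower and 2 did not pass, with a median log2 fold change of 1.21, or 1.19 with Batf3 at its bound, and of 0.38 with 2 higher and 1 lower when scaled to the hybridisation controls. Over all genes 14.5% were called higher. At an unadjusted p under 0.05, 6 were higher and 0 lower. Jdp2, which encodes a repressor of AP-1 activity, had 871, 779.5 and 481 in tumors, against 143, 232.5 and 188 in wild-type samples. Its log2 fold change was 1.73 (SE 0.26, limma adjusted p = 0.00436). Maf, a large Maf factor gene, averaged 1762 ± 629.7 in tumors and 559 ± 86.3 in wild-type samples (SD, n = 3 each; log2 fold change 1.54, SE 0.29, limma adjusted p = 0.00982). Batf3, known for its role in dendritic cells, had 109, 167 and 117 in tumors, against 17.8, 16.5 and 20.4 in wild-type samples, and was at least 1.29-fold higher (limma adjusted p = 0.00122). Batf3 passed the filter through the tumors alone, so its p is not read as support, and 4 of the 5 calls stand without it. Batf, known from lymphocytes, and Mafk, a small Maf factor gene, also rose, with log2 fold changes of 1.21 and 1.19 (limma adjusted p = 0.0154 and 0.00519). Batf had 275.3, 245.4 and 163.65 in tumors, against 91.8, 49 and 103.7 in wild-type samples, which is near or under 100. All 5 were called higher without wild-type replicate 2 too. The macrophage marker sums given above were higher in the same tumors, and their part in these 5 genes was not tested.

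**Figure D4:**
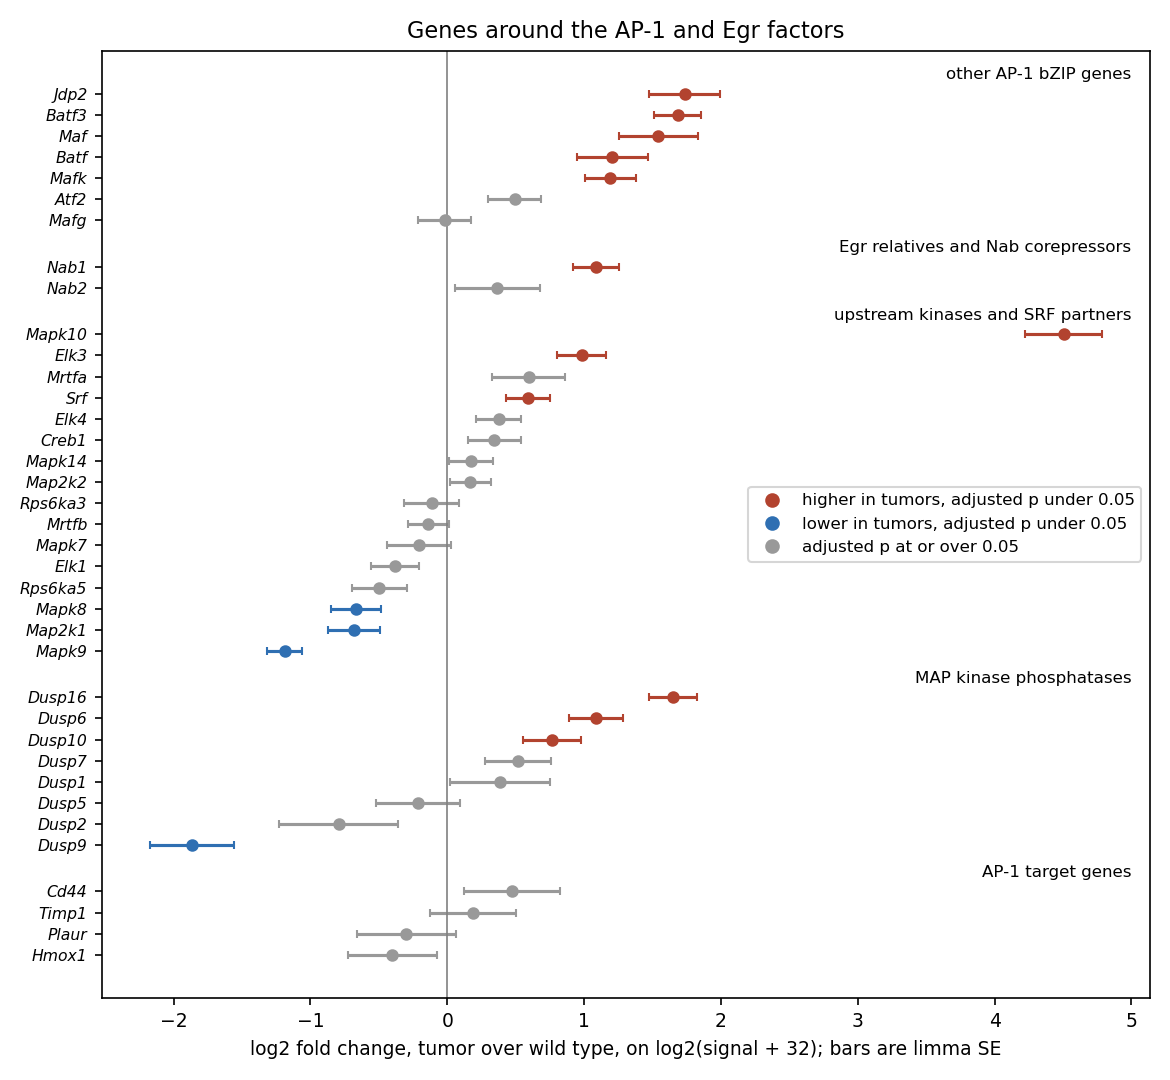
Log2 fold change of the tested genes of 5 lists, tumor over wild type, on the log2(signal + 32) scale (x axis) with limma standard errors, coloured by the call at an adjusted p of 0.05. Mapk10 lies highest at 4.50, and Dusp9, whose tumor signals are all under 100, lies lowest.

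Egr proteins are held in check by the Nab corepressors, whose genes Egr factors are known to induce. Nab1 averaged 2509.7 ± 404 in tumors and 1154 ± 70.3 in wild-type samples (SD, n = 3 each), 1.09 higher in log2 (SE 0.17, adjusted p = 0.00480 in limma). Scaled to the hybridisation controls Nab1 stood at 0.06 and did not pass. Nab2 did not pass in either case, and neither Egr3 nor Egr4 passed the filter.

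Upstream of these genes, 16 of 20 listed kinases and SRF partners were tested, of which 3 rose, 3 fell and the remaining 10 were not called, with a median log2 fold change of 0.03. These counts are near the 14.5% higher and 12.6% lower over all genes. Scaled to the hybridisation controls the median was -1.01, with 1 called higher and 10 lower. The JNK kinase genes, whose products phosphorylate Jun, split. Mapk10, the JNK3 gene that is known mainly from the nervous system, had 3012, 6019 and 3065 in tumors, against 160.1, 128.1 and 126.9 in wild-type samples. Its log2 fold change was 4.50 (SE 0.28, limma adjusted p = 0.000242), far beyond the spread of either group. Mapk9, the JNK2 gene, fell, with 833 ± 28.1 in tumors and 1939 ± 87.8 in wild-type samples (SD, n = 3 each; log2 fold change -1.19, SE 0.13, limma adjusted p = 0.00149), and Mapk8, the JNK1 gene, fell by 0.67 on the log2 scale (limma adjusted p = 0.0358). Map2k1, the MEK1 gene, fell by 0.68 (limma adjusted p = 0.0384). Elk3, which encodes an SRF partner, rose by 0.98 in log2 (SE 0.18, adjusted p = 0.00895 in limma), or -0.01 when scaled to the hybridisation controls, and Srf rose with 0.59 (limma adjusted p = 0.0315). Without wild-type replicate 2 the calls of Mapk10, Elk3, Srf and Mapk9 were also made, and those of Mapk8 and Map2k1 were not. Leaving out tumor replicate 1 or 3, or wild-type replicate 1 or 3, left 3 of the 6 calls.

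MAP kinase phosphatases switch MAP kinases off, and 8 of the 10 listed were tested. In tumors 3 were called higher, 1 lower and the other 4 were not called, against 14.5% higher and 12.6% lower over all genes, with a median log2 fold change of 0.45, or of -0.51 with 3 lower and 0 higher when scaled to the hybridisation controls. Dusp16, which acts on JNK, averaged 1286 ± 210.2 in tumors and 386 ± 40.5 in wild-type samples (SD, n = 3 each; log2 fold change 1.65, SE 0.17, limma adjusted p = 0.00137). Dusp6, which acts on ERK, averaged 883 ± 110.1 in tumors and 403 ± 99.5 in wild-type samples (SD, n = 3 each; log2 fold change 1.09, SE 0.20, limma adjusted p = 0.00891). Dusp10 rose with a log2 fold change of 0.77 (limma adjusted p = 0.0347). Dusp9 had 23.5, 12.1 and 53.5 in tumors, against 157.3, 143.4 and 273.7 in wild-type samples, and was at least 1.83-fold lower in tumors (limma adjusted p = 0.00622). Dusp9 passed the filter through the wild-type samples alone, so its p is not read as support. Without wild-type replicate 2, Dusp16, Dusp6 and Dusp9 were called and Dusp10 was not.

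Of 12 listed genes known as AP-1 targets, such as matrix proteases, 4 were tested and 0 passed in either direction, also at an unadjusted p under 0.05, with a median log2 fold change of -0.05. Over all genes 14.5% were higher and 12.6% lower, or 21.1% and 19.1% at an unadjusted p under 0.05. With 4 genes tested, a count of 0 cannot tell this list from the rest of the array. Mmp3, Mmp10, Mmp13, Plau and Il6 were under 100 on every array. Cd44, a cell surface receptor for hyaluronan, had the smallest p of the 4, with 449 ± 197 in tumors and 298 ± 77.7 in wild-type samples (SD, n = 3 each; log2 fold change 0.47, SE 0.35, limma adjusted p = 0.355). Without tumor replicate 3 Cd44 was called higher, at 0.86. Scaled to the hybridisation controls 3 of the 4 genes were called lower, against 65% of all genes.

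To find genes whose pattern was most like that of Fos and Egr1, log2 values were centred over the 6 arrays and the root mean square difference was taken for all genes with a mean signal of at least 500. Nearest to Fos among non-members were Adamts5 at 0.483, Ints6l at 0.501, Zfp711 at 0.530, Fbn2 at 0.568 and Mro at 0.572. Adamts5, the gene of a proteoglycan-cleaving protease, had 579.9, 399.6 and 520.3 in tumors, against 1878, 4067 and 1920.4 in wild-type samples, low in every tumor and highest in wild-type replicate 2 as Fos was. The nearest member was Ier2, at 0.529. Nearest to Egr1 were Zfp36 at 0.257, Galc at 0.332, Ppp1r15a at 0.363, Myl6 at 0.381 and Nr4a1 at 0.383, and the nearest member was Junb at 0.442. Zfp36 had 493, 416 and 387 in tumors, against 512, 1630.1 and 468 in wild-type samples, so that, as for Egr1, wild-type replicate 2 alone stood out. Fos and Egr1 were 0.958 apart by the same measure.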

How the data were processed

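Total RNA of 3 tumors and 3 wild-type granulosa cell pools was hybridised to 1 Affymetrix array each. The deposited values are linear signal intensity per probe set, made by the authors with MAS5 (wild type) and GCOS (tumors), per the submitters' processing notes, with no version given. Every array was scaled again to a trimmed mean of 500 with 2% left out at each end, which changed almost nothing. Names came from the platform's annotation in GEO: among 45101 probe sets 64 were controls, 34945 had 1 symbol, 932 several and 9160 none, and 34741 matched RefSeq's GRCm38.p6 gene table by Entrez identifier. Detection calls were not used here.

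Values were tested as log2(signal + 32) for probe sets that reached a signal of 100 on 3 or more arrays. The brightest passing probe set stood for a gene, which left 11611 genes. Groups were compared with limma 3.58.1 (lmFit, eBayes, 2-sided; R 4.3.3) and Benjamini-Hochberg adjustment over all genes, or over 24168 probe sets, called under 0.05. The pseudocount understates changes of dim genes. Where a group lay under 100 on all its arrays, "at least" folds set it to 100. Signals of different probe sets were not compared with each other. With 3 arrays a group the precision is limited by their number.

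Named genes were all members, the 3 called genes with the largest absolute change in each list and the called gene with the largest change the other way, or with 0 called the gene with the smallest p, and the 5 non-members most like Fos and Egr1. Genes named for their excess on wild-type replicate 2, and Batf, Mafk, Crem, Srf, Mapk8, Map2k1, Dusp10 and Sgk1, were chosen after their values were seen. The members and lists were chosen with earlier results of these data known. Some listed genes and markers were not analysed here. The fit was tested on simulated data. Alternatives changed the pseudocount, filter, scaling, probe set rule, prior, replicate block and each array. Tables and figures used Python 3.11.15, pandas 2.3.3 and matplotlib 3.10.9.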

Additional observations from a re-analysis of the deposited data

How the results depend on the processing

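Over 38 named genes and 16 alternatives, 554 single-gene results kept their direction and their side of the threshold, 24 passed where they had not, 14 no longer passed and 11 turned direction. Under the scaling to the hybridisation controls, direction was judged relative to the median of all genes. Genes such as Jund, at -0.82 on that scale, and Atf3, at -0.19, therefore count as kept. Fos, Fosl2 and Ier2 passed under every alternative run. The count of members lower, 3, was 8 when scaled to the hybridisation controls, 5 with an intensity trend in limma, and 3 to 4 when 1 array was left out; the count higher, 0, was 0 to 1, the 1 being Atf3, dim in wild type. Of all genes, 1686 were higher and 1468 lower, against 416 and 7544 when scaled to the hybridisation controls and 919 lower with equal medians. Leaving out 1 array gave 866 to 1704 higher and 662 to 1409 lower, lowest without wild-type replicate 1, while omitting wild-type replicate 3 gave 1092 and 880. Member probe sets lower, 4, were 3 to 5 without 1 array. The bZIP list had 5 calls, and 3 with the filter at 200 or scaled to the hybridisation controls. The same scaling gave 0 calls for Egr relatives, 14 for other immediate-early genes, 11 for upstream genes and 3 for AP-1 targets. Upstream calls were 3 with no filter and 3 with equal medians. Phosphatase calls were 2 with the filter at 200. Leaving out 1 array gave 2 to 6 calls for other immediate-early genes, 3 to 5 for upstream genes, 3 to 4 for phosphatases and 0 to 1 for AP-1 targets. The cause of these shifts was not tested.

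The sign of Egr2 turned to 0.059 with quantile normalization and 0.028 with equal medians, ranged from -0.38 to 0.39 when 1 array was left out, and was -0.89 scaled to the hybridisation controls, which is above the median of all genes there. Leaving out 1 array moved Jund between -0.20 (no tumor replicate 1) and 0.53, Nr4a1 between -0.45 and 0.55 (no wild-type replicate 2), and Ccn1 between -0.91 and 0.056 (no wild-type replicate 2). Nr4a1 was 0.0017 with equal medians. None of these passed in the reported fit, and neither Egr2 nor Jund can be given a direction. The replicate block gave 5 members lower, Fosb (adjusted p = 0.0140) and Jun (adjusted p = 0.0266) passing in limma. Same-numbered tumor and wild-type samples correlated at -0.04, 0.03 and 0.09 in their deviations across genes, and other pairs at -0.145 to 0.133. Not every sample correlated best with its own number. These values show no sign that the numbers pair the samples, but with 3 samples a group they cannot exclude it. Signals near 100, as in Atf3, Egr2 and Fosb, limit what these genes can show.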
